A study of Danio rerio with 12 samples.

Results

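The transcripts described here are those of 3 vitellogenin genes, vtg2, vtg3 and vtg4, and of nots, which encodes the protease nothepsin. They were taken as every probe set of the Affymetrix Zebrafish Genome Array whose only gene symbol in the array annotation is one of these names. The rule found 4 genes, with 1 probe set each, of 8793 genes that have a probe set of their own among the 15502 non-control probe sets of the array. RNA came from adult zebrafish of the wild-type AB strain, full siblings 4 to 12 months old, which had spawned and were then kept apart by sex for 5 days. There were 4 groups: ovary, female body minus ovaries, testis, and male body minus testes. Each group had 3 arrays, 1 for each fish, and gonads and body with the same replicate number were taken to come from the same fish. The fish were untreated and unmodified, and each body sample was the whole fish after the reproductive tract had been taken out, so that liver, muscle, brain, blood and all other organs were measured together.

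Vitellogenins are the large lipid-carrying precursors of egg yolk. In egg-laying vertebrates they are made in the female liver under the control of estrogen, secreted into the blood, taken up by growing oocytes through receptors on their surface, and cut by proteases into the proteins stored in yolk. The products of vtg2 and vtg4 carry the serine-rich phosvitin stretch that binds phosphate and metal ions, whereas that of vtg3 lacks it. Nothepsin is an aspartic protease related to cathepsin D that was described from the liver of female fish. In the RefSeq annotation of assembly GRCz12tu, vtg2 and vtg4 lie on the same chromosome in a run that reads vtg5, vtg4, vtg6, vtg7, vtg2 and vtg8, so that 6 of the 8 protein-coding genes of that run are vitellogenins. The genes vtg3 and nots lie on other chromosomes, apart from that run and from each other. Because vtg2 and vtg4 lie among other vitellogenin genes in the run, a probe set named for either may also measure its neighbours. How much it does was not tested.

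Signals are the authors' GCOS values, linear intensities that were scaled on each array to the same trimmed mean of about 500. Values were set to a floor of 32 before log2 was taken, and a difference is a difference of mean log2 signals, with its standard error (SE). The trimmed means lay between 500.09 and 500.16 on the 12 arrays. The share of probe sets at or below the floor was 33.0% to 35.7% on ovary arrays, 12.3% to 18.4% on female body arrays, 14.1% to 17.9% on testis arrays and 10.4% to 11.8% on male body arrays. Defining markers of the labelled tissues were checked on summed signals. The 26 oocyte and egg coat genes on the array summed to between 241666 and 269980 in ovaries and the 13 testis genes to between 78729 and 81687 in testes. The 26 liver genes summed to between 173768 and 197633 in female bodies and between 202885 and 265243 in male bodies. The female bodies, labelled as minus ovaries, did not lack the oocyte and egg coat genes: these stood at 78.5%, 56.0% and 42.4% of the mean ovary sum in female bodies 1, 2 and 3, and the mean male body sum was 0.735% of the mean female body sum. The results of the 4 genes on female bodies are given for every array, and without the arrays whose removal moves their size by over 1.5 times. Since all 3 female bodies gave the oocyte signal, leaving out an array does not take it away.

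All 4 genes gave a high signal in the female bodies and in none of the other groups. The gene vtg2 had signals of 23631, 31932 and 38762 in female bodies 1, 2 and 3, against 57.5, 15.4 and 16.7 in male bodies. It was among the brightest of the 15502 probe sets in females, with ranks of 4, 3 and 3 on the 3 female body arrays. Its ovary signals were 124.1, 111.9 and 198.5, all clear of the floor, and its testis signals were 35.7, 34.1 and 28.0, at about the floor. The order of the groups for vtg2 was female body, then ovary, then testis and male body, whose ranges overlap and which have no order between them.

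The gene vtg4 had signals of 11197, 17421 and 26398 in female bodies, against 2.4, 17.2 and 17.0 in male bodies. Every male body and testis array was at or below the floor, with testis signals of 4.7, 6.1 and 15.9. Ovaries gave 13.7, 18.8 and 79.0, so that only ovary 3 was above the floor. No order can be read among ovary, testis and male body for vtg4.

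For vtg3 the female body signals were 4163, 7867 and 18748, against 118.3, 27.2 and 33.7 in male bodies. Ovaries gave 21.0, 14.4 and 48.5, and testes gave 35.2, 41.7 and 36.6. The ranges of ovary, testis and male body overlap, with male body 1 the highest array outside the female bodies. For nots the female body signals were 1582, 2835 and 10609, against 11.6, 28.1 and 26.2 in male bodies, all 3 of which were below the floor. Ovaries gave 66.5, 62.1 and 40.5 and testes gave 78.6, 65.1 and 47.6, which overlap each other and lie above all male bodies.

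**Figure D1:**
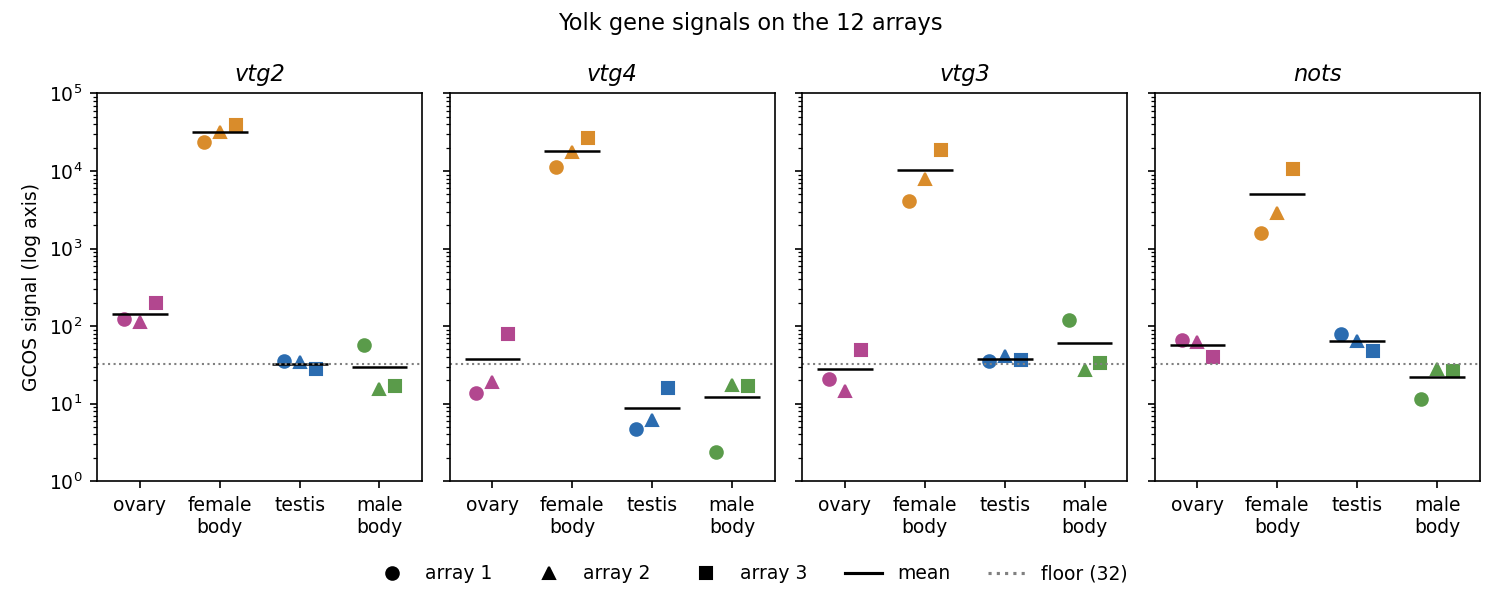
GCOS signal on a log axis for vtg2, vtg4, vtg3 and nots on each of the 12 arrays, by group, with the group mean as a bar and the floor of 32 as a dotted line. In each panel the 3 female body arrays stand above all other arrays, the lowest of them being nots in female body 1 at 1582, and array 3 is the highest of the 3.

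The comparison of female and male body tissue asks which transcripts differ by sex in the body without its gonads. In these samples all 26 oocyte and egg coat genes were called higher in female bodies as well, with a median log2 difference of 6.69. All 4 genes were higher in female bodies with groups that do not overlap, and all 4 passed the test across probe sets, in which 12.9% of 14941 probe sets tested were called higher and 19.5% were higher with no overlap. vtg2 averaged 31442 ± 7577 in female bodies and 29.9 ± 23.9 in male bodies (SD, n = 3 each), a log2 difference of 9.63 (SE 0.30, limma with Benjamini-Hochberg adjusted p = 6.5e-07). Since 2 of its 3 male body arrays were at the floor, its 792-fold ratio depends on that floor. vtg4 was at least 540-fold higher in female bodies (log2 difference 9.08, SE 0.30, limma adjusted p = 9.4e-07), a lower bound because all its male body arrays were at the floor. vtg3 was 169-fold higher (log2 difference 7.40, SE 0.65, limma adjusted p = 3.0e-04). nots was at least 113-fold higher (log2 difference 6.82, SE 0.62, limma adjusted p = 3.4e-04).

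The size for vtg3 and nots turned on single arrays. Without female body 3 the log2 difference between female and male bodies was 6.83 for vtg3 and 6.05 for nots, both still called. Without female body 1, the lowest, it was 7.42 for nots. Without male body 1, in which vtg3 was highest, the difference for vtg3 was 8.02. Under a plain 2-sample test on linear signals, none of the 4 was called after adjustment over all probe sets (adjusted p of 0.065 for vtg2, 0.092 for vtg4, 0.18 for vtg3 and 0.26 for nots). That test called 53 of 14941 probe sets, 21 of them higher in female bodies. Of the 4 genes, 2 passed an unadjusted threshold of 0.05, for which no share over all probe sets is given here.

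Between ovary and female body the genes differed in the other direction. All 4 were lower in ovaries, without overlap, where 29.5% of 14137 probe sets were called lower and 38.0% were lower with no overlap. The mean ovary signal was 0.461% of the mean female body signal for vtg2, 0.203% for vtg4, 0.273% for vtg3 and 1.13% for nots. The log2 difference of ovary minus female body was -7.78 for vtg2 (SE 0.28, limma adjusted p = 2.2e-06), -8.64 for vtg4 (SE 0.44, adjusted p = 1.1e-05), -7.85 for vtg3 (SE 0.51, adjusted p = 3.4e-05) and -6.04 for nots (SE 0.64, adjusted p = 3.2e-04). For vtg4 and vtg3, with 2 of 3 ovaries at the floor, the size depends on the floor. Without female body 3 the difference was -7.28 for vtg3 and -5.27 for nots, and without female body 1 it was -6.64 for nots. The 26 liver genes, which were all lower in ovaries too, had a mean ovary sum of 0.512% of the female body sum, and 14 to 17 of them were at or below the floor on each ovary array. In these mixed tissues fewer cells of a type and less RNA per cell cannot be told apart.

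Between the gonads of the sexes 1 of the 4 genes was called, vtg2. It averaged 145 ± 46.9 in ovaries and 32.6 ± 4.06 in testes (SD, n = 3 each), with no overlap, and was 4.14-fold higher in ovaries (log2 difference 2.05, SE 0.24, limma adjusted p = 2.8e-04). Of 13965 probe sets tested, 24.4% were called higher in ovaries and 26.4% were higher with no overlap. The log2 difference of ovary minus testis was 0.43 for vtg4 (SE 0.34, adjusted p = 0.3), -0.04 for vtg3 (SE 0.18, adjusted p = 0.86) and -0.18 for nots (SE 0.27, adjusted p = 0.57). Ovary signals over all probe sets were lower than testis signals by a median log2 difference of -0.36, which changed to 0.15 when arrays were centred on their medians and to 0.04 after quantile normalization. With quantile normalization vtg2, vtg3 and nots were all called higher in ovaries, so that no direction can be given for vtg3 and nots between the gonads. That setting called 4635 of 14692 probe sets higher in ovaries, against 3413 of 13965 without it.

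Between testis and male body, nots was called higher in testes, with a mean of 63.8 ± 15.5 in testes and 22.0 ± 9.03 in male bodies (SD, n = 3 each). It was at least 1.95-fold higher (log2 difference 0.97, SE 0.21, limma adjusted p = 5.1e-03), with no overlap, in a comparison that called 29.2% of 14965 probe sets higher and had 32% higher with no overlap. Both groups were close to the floor, and the call was lost in a fit of all 12 arrays together (adjusted p = 0.14). The log2 difference of testis minus male body was -0.20 for vtg2 (adjusted p = 0.51) and -0.42 for vtg3 (adjusted p = 0.48). That for vtg3 was 0.20 without male body 1 (adjusted p = 0.24). vtg4 was not tested here because all 6 arrays were at or below the floor.

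A test of the difference between the sexes in their gonad-body contrast, on all 12 arrays, was past the threshold for all 4 genes. The contrast of ovary minus female body was below that of testis minus male body by a log2 difference of -8.64 for vtg4, -7.58 for vtg2, -7.44 for vtg3 and -7.00 for nots, with limma adjusted p of 4.1e-07, 2.3e-07, 2.9e-05 and 3.4e-05. In this test 23.1% of 15071 probe sets were called in the same direction. For vtg4 the testis and male body arrays were all at the floor, so that its value is that of ovary minus female body again. Leaving out female body 1 or 3 gave -7.60 or -6.23 for nots, and leaving out male body 1 gave -8.05 for vtg3, all still called.

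Variation among the 3 females differed from gene to gene, although the order of the fish did not. Female body 3 had the highest signal and female body 1 the lowest for all 4 genes. The highest signal over the lowest was 1.64 for vtg2, 2.36 for vtg4, 4.5 for vtg3 and 6.7 for nots. Among 7757 probe sets whose mean signal in female bodies reached 200, the median of this ratio was 1.64 and the 90th percentile was 2.75, and 50.0%, 16.7%, 2.54% and 1.17% of them had a larger ratio than vtg2, vtg4, vtg3 and nots. The same order of fish, with 3 highest and 1 lowest, was found for 27.8% of these probe sets.

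The ratio was smallest for the gene with the highest signal and largest for that with the lowest, so the genes differ in brightness as well as in spread. Quantile normalization took the ratio for vtg2 to 1.02, since its rank was nearly the same on all 3 arrays, and left that for nots at 5.35. How far the top of the scanner's range limits the ratio for vtg2 was not tested. Most of the spread of nots lay between females 2 and 3, with 3.74 times more signal in female body 3 than in female body 2 and 1.79 times more in female body 2 than in female body 1. For vtg3 these steps were 2.38 and 1.89, for vtg4 they were 1.52 and 1.56, and for vtg2 they were 1.21 and 1.35.

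The tissue makeup of the female bodies also differed. The summed oocyte and egg coat genes, of which 0 of 26 had a ratio of female body 3 over female body 1 as large as that of vtg2, fell in the opposite order of fish, with a median ratio of 0.452. The summed liver genes were at 73.4%, 83.5% and 79.5% of the mean male body sum in female bodies 1, 2 and 3, with a median ratio of 0.976 between fish 3 and 1. Of the 26 liver genes, 5 had a larger ratio of fish 3 over fish 1 than vtg2, 2 had a larger one than vtg4 and none had a larger one than vtg3 or nots. This ratio leaves out genes that fell from fish 1 to fish 3, such as c9 and c3a.1. Their highest over lowest was 3.37 and 3.33. The shares over all probe sets given above are for highest over lowest, and none is given here for fish 3 over fish 1. The 16 lipoprotein and other lipid transport genes had a median ratio of fish 3 over fish 1 of 1.49. Of these, 7 had a larger ratio than vtg2, 3 than vtg4, 1 than vtg3 and 0 than nots. Among 13 other genes of the aspartic protease and cathepsin list the median was 1.02, and 1 had a larger ratio than nots. Muscle genes stood at 41.3%, 63.2% and 86.6% of the male body sum, brain and nerve genes at 28.6%, 50.7% and 79.4%, and blood genes at 24.8%, 51.4% and 58.6%, in the same order of fish as the yolk genes. The median ratio of fish 3 over fish 1 was 2.08 for the 18 muscle genes, 1.96 for the 13 brain and nerve genes and 2.32 for the 12 blood genes. A larger ratio than that of vtg2 was found for 18 of the 18 muscle genes, 12 of the 13 brain and nerve genes and 9 of the 12 blood genes, and a larger one than that of vtg4 for 7, 3 and 6 of them. For vtg3 these counts were 1, 1 and 3, and for nots they were 1, 1 and 1. The part of this makeup in the spread of the 4 genes was not tested.

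**Figure D2:**
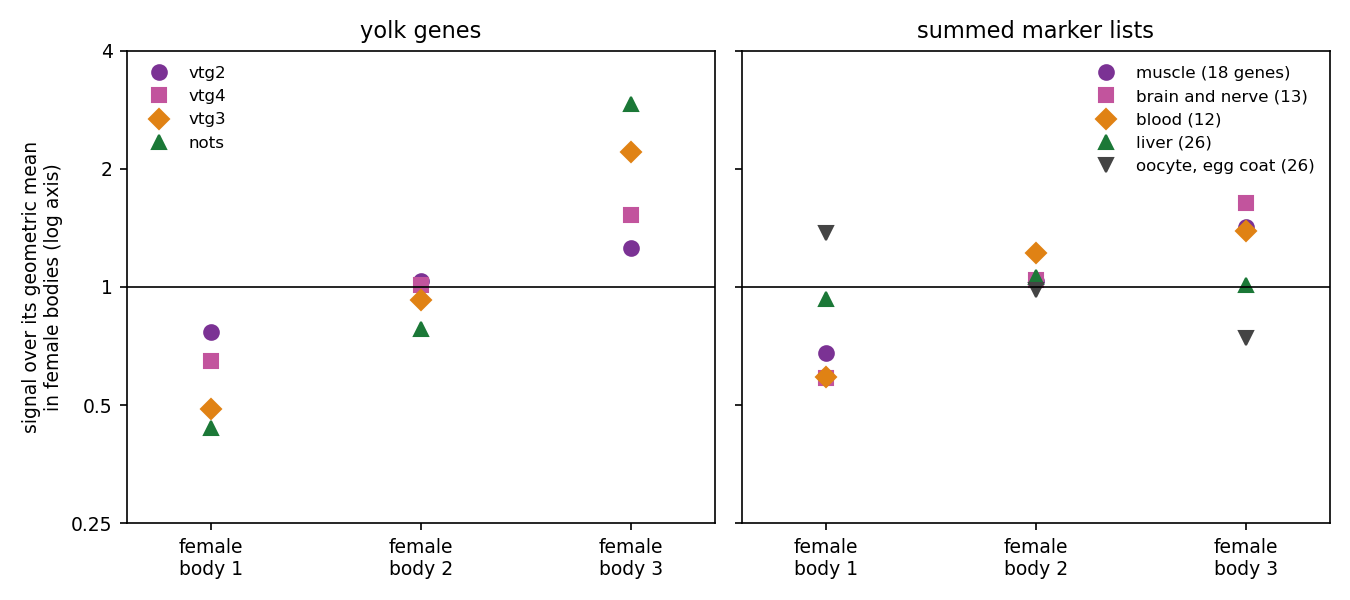
Signal in each female body over the geometric mean of the 3 female bodies, on a log axis, for the 4 yolk genes at left and for summed marker lists at right. The yolk genes ascend in the order of fish 1, 2 and 3, most for nots (6.7 between fish 3 and 1) and least for vtg2 (1.64), while the liver sum stays close to 1 and the oocyte sum descends.

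Among the ovaries, too, array 3 was the highest for 3 of the 4 genes. Ovary 3 was the highest of the 3 ovaries for vtg2, vtg4 and vtg3, at 198.5, 79.0 and 48.5. For vtg4 and vtg3 the other ovaries were below the floor. Ovary 3 also had the highest median signal over all probe sets, 128.7 against 120.5 and 102.95 in ovaries 1 and 2. How many probe sets were highest in ovary 3 was not counted, so no match of ovary and body can be read from this order. For nots ovary 3 was the lowest, at 40.5, against 66.5 and 62.1 in ovaries 1 and 2.

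Of the 8 vitellogenin genes searched for, 3 had a probe set of their own. A further pair of probe sets is annotated to several vitellogenins at once and was left out of the 4. The probe set for vtg6 and vtg5 had female body signals of 21596, 28704 and 35016, against 7.0, 7.4 and 3.2 in male bodies, and was at least 872-fold higher in female bodies. Its ovary signals were 403.4, 424.4 and 710.9, against 33.7, 52.5 and 47.1 in testes, 11.3-fold higher in ovaries (log2 difference 3.50, SE 0.31, limma adjusted p = 6.6e-05). The probe set for vtg4, vtg7, vtg6 and vtg5 had signals of 205.2, 294.2 and 555.7 in ovaries, against 40, 54.2 and 96.3 in testes, 5.44-fold higher in ovaries (limma adjusted p = 2.8e-03). In both of them, as for vtg2, ovary 3 was the highest ovary and female body 3 the highest female body.

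Genes around vitellogenin in its route were read from lists of known roles. Of 10 genes of estrogen receptors and estrogen synthesis on the array, 1 was called higher in female than in male bodies, where 12.9% of all probe sets were. This was esr1, the nuclear estrogen receptor through which vitellogenin genes are induced in fish liver. The brighter of its 2 probe sets had signals of 109.5, 304.1 and 538.0 in female bodies, against 46.8, 78.8 and 72.6 in male bodies, which do not overlap (log2 difference 2.02, SE 0.57, limma adjusted p = 0.033). The dimmer one had 79.9, 229.5 and 292.6 in female bodies and 7.0, 27.0 and 54.0 in male bodies (log2 difference 2.2, limma adjusted p = 0.018). Both had the order of females of the yolk genes, with highest over lowest of 4.91 and 3.66. This order was found for 27.8% of the probe sets with a female body mean of at least 200, and is not particular to esr1 in this list. The gene cyp19a1b had it too, with 64.1, 139.9 and 326.6 in female bodies, a ratio of 5.1. Its mean was lower in female than in male bodies (177 against 353). In ovaries esr1 was at or below the floor on all 3 arrays of both probe sets. Called lower in female bodies were hsd17b3, an enzyme that makes testosterone, and nr5a1a, a nuclear receptor of steroid-making cells, in a comparison that called 18% of all probe sets lower. The calls of esr1, hsd17b3 and nr5a1a were not firm: leaving out single arrays took the adjusted p of the brighter esr1 probe set as high as 0.10 (without male body 1), that of hsd17b3 to 0.11 and that of nr5a1a to 0.13. The median log2 difference over the 10 genes was -0.64, against -0.27 over all probe sets.

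Of the genes for yolk uptake, vldlr is the lipoprotein receptor through which oocytes take up vitellogenin. It had signals of 6812, 5724 and 7153 in ovaries, against 4814, 3001 and 2329 in female bodies, 2.02-fold higher in ovaries (log2 difference 1.02, SE 0.27, limma adjusted p = 0.015), a call that was lost without ovary 1, ovary 3 or female body 2 (adjusted p of 0.051, 0.052 and 0.061). It averaged 3381 ± 1286 in female bodies and 799 ± 125 in male bodies (SD, n = 3 each; log2 difference 2.03, SE 0.28, limma adjusted p = 0.0034). Among female bodies vldlr ran in the order of the oocyte genes, highest in fish 1, and opposite to the yolk genes. Its chaperone lrpap1 was 1.83-fold higher in ovaries than in female bodies (limma adjusted p = 0.0087), and lrp1aa, a receptor of many ligands, was 6.14-fold lower in ovaries (adjusted p = 0.0044). Of the 5 genes of this list on the array, 3 could be tested between ovary and female body, and 2 were called higher, where 28.2% of all probe sets were, and 1 lower.

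The list of aspartic proteases and cathepsins had 14 genes on the array, nots among them. In female against male bodies 3 were called higher and 3 lower, against 12.9% and 18% of all probe sets, with a median log2 difference of 0.02, against -0.27 over all probe sets. The others called higher were ctss2.1, a cathepsin S gene, with 14527, 12536 and 10196 in female bodies, against 496, 553 and 496 in male bodies (log2 difference 4.58, SE 0.19, limma adjusted p = 3.2e-06), and ctsba, a cathepsin B gene, whose ranges overlap (log2 difference 1.33, SE 0.39, adjusted p = 0.037). Unlike nots, ctss2.1 was bright in ovaries, with 16854, 19128 and 16018, and in female bodies it was highest in fish 1. Called lower in female bodies were ctsk, bace1 and napsa. The calls of ctsba, bace1 and napsa were lost when some single arrays were left out, with adjusted p of up to 0.12, 0.076 and 0.14. In ovary against female body 3 of the 14 were called higher, ctsc, ctsla and ctsa, and 7 lower, nots among them, against 28.2% and 29.5% of all probe sets, a split that was 6 and 6 with arrays centred on their medians. The gene ctsd, for cathepsin D, the usual yolk-cutting aspartic protease of egg-laying vertebrates, averaged 3815 ± 752 in ovaries, 3125 ± 357 in female bodies, 2890 ± 313 in testes and 3934 ± 276 in male bodies (SD, n = 3 each). Among 13 subunits of the vacuolar proton pump, which acidifies the compartments where such proteases work, 1 was called higher and 2 lower in ovaries than in female bodies (7 and 2 with median centring), against 28.2% and 29.5% of all probe sets. In female against male bodies 0 were called higher and 3 lower, against 12.9% and 18% of all probe sets.

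Lipoprotein genes and other genes of lipid transport shared the difference of the 4 genes between ovary and female body. Few differed between the bodies of the sexes. All 16 on the array were called lower in ovaries than in female bodies, where 29.5% of all probe sets were. Their median log2 difference was -6.92, against -0.05 over all probe sets, and all 16 were also called lower with median centring and with quantile normalization. Between testis and male body 14 of the 16 were called lower and 1 higher, where 4475 and 4366 of 14965 probe sets were. The median log2 difference there was -4.34, against -0.12 over all probe sets. No yolk gene tested there was called lower, but such a call had little room. In male bodies nots was at the floor on 3 arrays, vtg2 on 2 and vtg3 on 1, so the yolk genes cannot be set against the lipoprotein genes here. In female against male bodies 0 were called higher and 1 lower, against 12.9% and 18% of all probe sets. The gene called lower was apoeb, an apolipoprotein E gene (log2 difference -0.69, SE 0.19, limma adjusted p = 0.033), which was not called without male body 3 (adjusted p = 0.10). In the test of the gonad-body contrast between the sexes 0 of the 16 were called higher and 8 lower (5 with quantile normalization), with a median log2 difference of -1.42, against 23.1% lower and a median of -0.07 over all probe sets. The apolipoprotein B gene apobb.1, whose product belongs to the same protein family as vitellogenin, had 7758, 8976 and 11265 in female bodies, against 12926, 10350 and 11006 in male bodies, with ranges that overlap (log2 difference -0.30, adjusted p = 0.32). In ovaries it had 53.0, 26.7 and 16.4. The 26 liver genes likewise had 0 called higher and 0 called lower in female than in male bodies, against the same 12.9% and 18%. Their median log2 difference was -0.27, the same as over all probe sets.

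**Figure D3:**
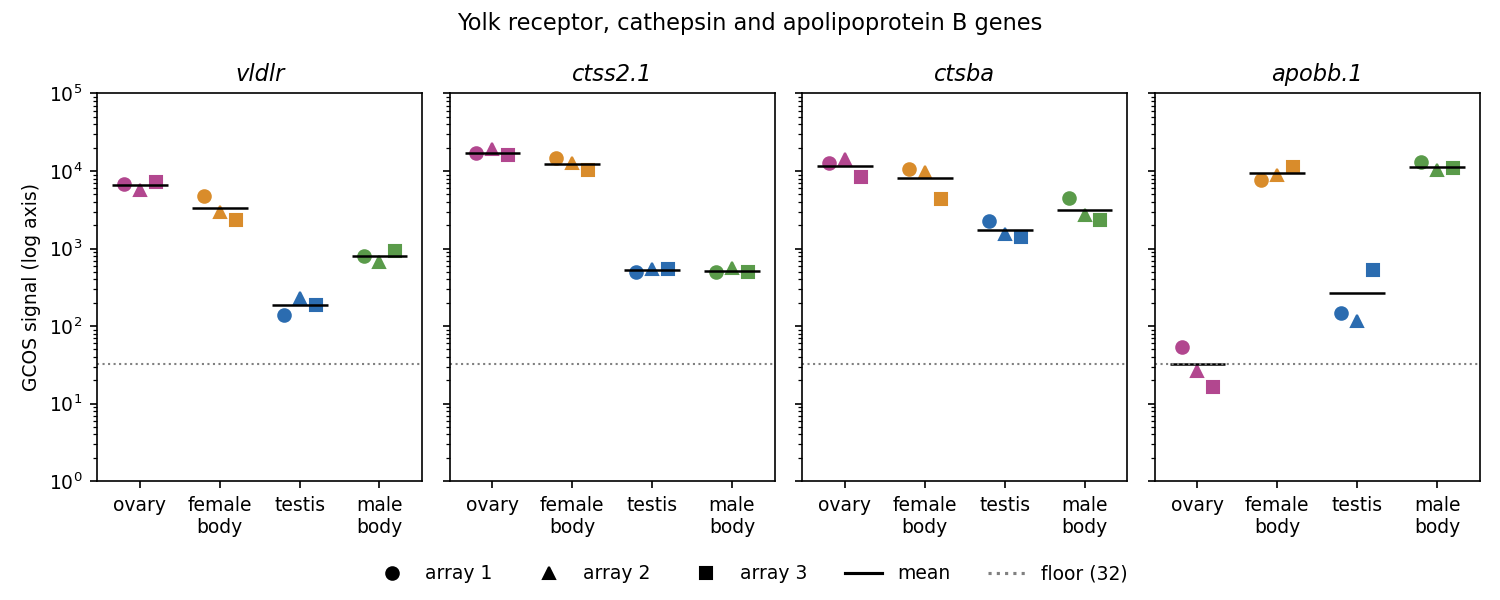
GCOS signal on a log axis on each of the 12 arrays for vldlr, ctss2.1, ctsba and apobb.1, with group means as bars and the floor of 32 dotted. The signals of vldlr and ctss2.1 are highest in ovaries (means of 6563 and 17333) and lower in both male groups, while apobb.1 is bright in both bodies (means of 9333 in female and 11427 in male bodies) and 16.4 to 53.0 in ovaries.

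The genes with the most similar pattern were sought among 6675 probe sets with a single symbol whose log2 signal spanned at least 2 over the 12 arrays, by the root mean square difference of log2 signals after each was centred on its own mean. Among the 4 themselves this difference was smallest between vtg2 and vtg4, at 0.68, then 0.80 between vtg3 and vtg4, and 1.00 between vtg3 and nots. Of the other genes in this search, none was as near to any of the 3 vitellogenins as the remaining members were. Probe sets annotated to several vitellogenins have no single symbol and were left out of it. How near they are was therefore not part of this ranking. The nearest other gene in the search to each of the 4 was cyp2k6, a cytochrome P450 gene, at 0.91 from nots, 1.29 from vtg3, 1.87 from vtg4 and 2.08 from vtg2. It was nearer to nots than any of the 3 vitellogenins was. It had 443.8, 1097 and 1846 in female bodies, against 67.6, 25.2 and 34.2 in male bodies, with the order of females of the yolk genes. The measure took in all 12 arrays, so high female body signals and this order are partly fixed by the choice. They are no separate likeness. The gene f13a1a.1, named for the A chain of coagulation factor XIII, had 115.5, 219.7 and 847.3 in female bodies, against 25.1, 19.0 and 20.9 in male bodies. The gene lgals9l6, named as a galectin, had 85.8, 4656 and 1073 in female bodies, against 20.6, 232.8 and 41.2 in male bodies, and thus peaked in fish 2. These 3 genes were among the 5 nearest to each of the 4. The others named by this measure were wu:fb63a08 and another gene known only by a clone name, the dimmer esr1 probe set at 1.95 from nots, and zp3.1, an egg coat gene, at 2.99 from vtg2. The likeness to zp3.1 is loose, since that gene had 16172 to 17238 in ovaries.

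**Figure D4:**
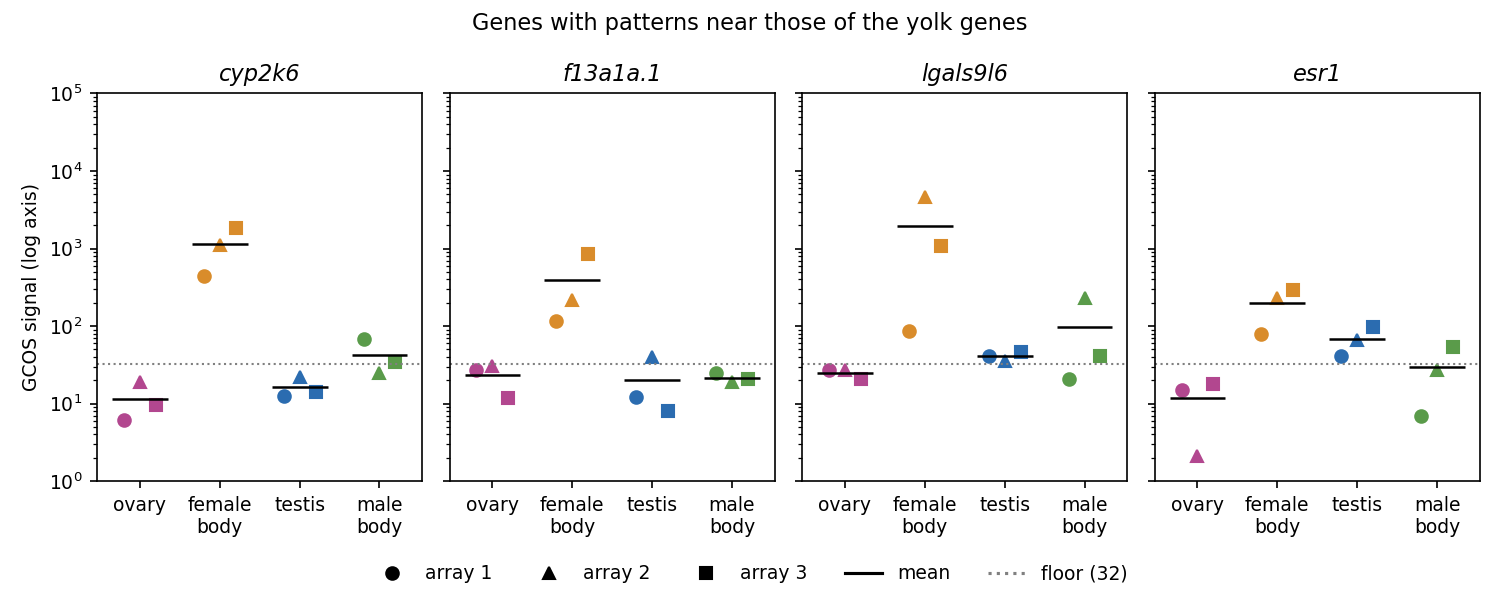
GCOS signal on a log axis on each of the 12 arrays for cyp2k6, f13a1a.1, lgals9l6 and the dimmer esr1 probe set, with group means as bars and the floor of 32 dotted. The female body means of 1129, 394, 1938 and 201 are the highest of each panel, and lgals9l6 alone is highest in female body 2. These genes were chosen for a pattern near the yolk genes, so high female body means are partly fixed by the choice.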

How the data were processed

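The intensities were deposited by the authors as GCOS 1.2 signals, per the methods and the labels: for each probe set of 16 pairs of 25-base probes, a robust mean with mismatch values subtracted, scaled so that each array's mean after trimming 2% at each end is equal. This scaling was checked on the files. Of 15617 probe sets, 115 controls were left out. Signals under 32 were raised to 32. A probe set that did not exceed 32 on any array of a comparison was left untested. The limma package (3.58.1, R 4.3.3) was run with lmFit and eBayes and a trend in intensity, once for the 6 arrays of each group pair and once for all 12 arrays, where the gonad-body contrast of females was set against that of males. Two-sided p-values were corrected by the Benjamini-Hochberg method across every probe set tested, and 0.05 was the threshold. Folds are lower bounds where the group below has every array at 32. The fits were run on simulated data with changes placed only where the level stays above the floor. That run does not bear on sizes at the floor, and its rates are not given here. Tables and plots used Python 3.11.15, NumPy 2.4.6, SciPy 1.17.1, pandas 2.3.3 and matplotlib 3.10.9.

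Symbols come from the array annotation: 10795 probe sets have 1 symbol, 135 have several and 4572 have none listed. Where a listed gene had several probe sets, the one brightest on average in log2 was used. Genes named are the 4 members, the 5 probe sets nearest to each in pattern, and list genes that passed a test or define their list. The members and lists were chosen with earlier results of these data known. Gonads and body of a number were taken to come from the same fish. Deviations from group means correlated at 0.242 to 0.290 between ovary and female body of a number, each best with its own. Between testis and male body of a number they correlated at 0.295 to 0.308, again each best with its own. Between the sexes numbers do not pair fish. Each array is 1 fish, and by this reading of the numbers a fish gave both a gonad and a body array. The main fits treat the arrays as independent. Pairing entered only through the replicate block. The number of arrays limits the precision. Alternatives were other floors or none, filters on low values, median centring and quantile normalization, a joint fit of the 12 arrays, no trend, array weights, a replicate block, a plain 2-sample test on linear signals (the methods name standard 2-sample tests; the scale is not given in the sources used here), and leaving out each array. Other signal algorithms and real-time PCR were not analysed here.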

Additional observations from a re-analysis of the deposited data

Results flagged for a closer look

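The gonad-body contrast differed between females and males for all 4 genes, by a limma interaction test on 12 arrays. The log2 contrast of ovary minus female body was lower than that of testis minus male body by a difference of -7.581 for vtg2, -8.641 for vtg4, -7.437 for vtg3 and -7.004 for nots, in a test that called 23.1% of all probe sets lower. For vtg4, and for nots in male bodies, the male values are at the floor of 32, so the size depends on that floor. It does so in part for the others. The gene vtg2 was at the floor on 2 male body arrays and 1 testis array, and vtg3 on 2 ovary arrays and 1 male body array. Over 22 alternatives the difference ran between -8.18 and -6.84 for vtg2, -9.17 and -7.43 for vtg4, -8.12 and -6.33 for vtg3, and -7.65 and -5.18 for nots, with a highest limma adjusted p of 0.0012.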

How the results depend on the processing

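The 4 genes kept their direction and their call for female against male body and for ovary against female body under every alternative but 1, a plain 2-sample test on linear signals. That test called 0 of 4 in the first (53 probe sets in all, against 4613). In the second it called 2 of 4 lower, where 2897 of 14137 probe sets were called lower. For ovary against testis, where 1 gene was called, 0 were called with a floor of 100 and 3 after quantile normalization, which turned nots to 1.01 (adjusted p = 0.012) and vtg3 to 0.84 (adjusted p = 0.038) on the log2 scale. For testis against male body, where 1 gene was called, 0 were called with a floor of 100 and 0 in 1 fit of all 12 arrays. With a mean of at least 200 required, the 4 genes drop out of these last comparisons and have no value. The replicate block changed no call of the 4 genes and moved no count of calls by over 1.5 times (8704 probe sets called in place of 8159 for ovary against female body). For vtg4 in ovary against female body the SE was 0.24 with the block (limma adjusted p = 1.9e-09). Between the sexes the numbers do not pair fish, so the block says nothing about pairing there. For female against male body the count of 4613 probe sets called became 8979 with array weights, 2369 with a floor of 100, 2135 without female body 2 and 2254, 2550 and 1853 without male bodies 1, 2 and 3. The median difference of ovary minus female body was -0.05 over all probe sets and 0.51 with median centring. Of all probe sets called, the share called higher was 48.8% there, 36.5% for ovary against testis and 35.4% for the sex difference, against 66.8%, 58.1% and 68.2% with median centring and 63.3%, 50.7% and 52.7% with quantile normalization. Ratios among female bodies without 1 array ran between 1.79 and 6.7 for nots, 1.89 and 4.5 for vtg3, 1.52 and 2.36 for vtg4, and 1.21 and 1.64 for vtg2. Signals at the floor, in 10.4% to 35.7% of probe sets on an array, limit the values of vtg4 outside female bodies and those of vtg2 and nots in male bodies. They also limit vtg3 in ovaries, with 2 arrays at the floor, and on 1 array each vtg3 in male bodies and vtg2 in testes.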
